A study of Homo sapiens with 6 samples.

Results

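The cyclin-dependent kinase (CDK) inhibitor genes CDKN1A, CDKN1B, CDKN1C, CDKN2A, CDKN2B, CDKN2C, CDKN2D and CDKN3 were examined in PANC-1, an established cell line of human pancreatic ductal adenocarcinoma. They were taken by gene symbol from the deposited expression table, in which they make up 8 of 58735 rows. RNA-seq had been performed on 6 samples. The 3 control samples (si-NC) had received a control siRNA according to their titles, although another of their labels reads WT. The 3 METTL16-silenced samples (si-METTL16) had received siRNA against METTL16, an RNA methyltransferase that deposits N6-methyladenosine (m6A). The methods name siRNA for the sequenced cells, with stable transfection, and shRNA for METTL16 silencing elsewhere. The titles number the samples of each group 1, 2 and 3, and the methods name biological triplicates for each group. The study lists METTL16 siRNAs with the same numbers and a control siRNA without a number. No label says whether a silenced sample's number is that of a replicate or of a siRNA. The silenced samples are treated here as replicates of 1 group, and a difference between replicates and a difference between siRNAs cannot be told apart. Both groups are the same cell line, so the values describe 1 line.

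CDK inhibitors are small proteins that bind CDKs or their complexes with cyclins and hold back the cell cycle. The CIP/KIP proteins p21 (CDKN1A), p27 (CDKN1B) and p57 (CDKN1C) bind cyclin-CDK complexes, above all those of CDK2, and p21 and p27 also assist the assembly of cyclin D with CDK4 and CDK6. The INK4 proteins p16 (CDKN2A), p15 (CDKN2B), p18 (CDKN2C) and p19 (CDKN2D) bind CDK4 and CDK6 alone and keep cyclin D away. CDKN3 is not built like either family. It is a phosphatase that removes the activating phosphate from CDKs, and its mRNA is most abundant in dividing cells. Loss of CDKN2A is a hallmark of pancreatic cancer.

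The si-NC samples held between 16809558 and 17408052 counts and the si-METTL16 samples between 15725298 and 18054436, so that 3 counts were worth 0.166 to 0.191 CPM (counts scaled to a common library total). Counts were compared with the quasi-likelihood test of edgeR after TMM scaling, with Benjamini-Hochberg adjustment over the 15089 genes that passed a filter on low counts, and a gene is said to have risen or fallen where its adjusted p was under 0.05. METTL16 itself served as the check of the labels. It had 1546, 1641 and 1764 counts in si-NC and 571, 528 and 627 in si-METTL16, which is 35.9% of the control level. Of the 6 markers of ductal epithelium, KRT19, KRT7 and SOX9 fell (log2 fold changes -1.40, -0.84 and -0.25) and KRT8, KRT18 and EPCAM did not pass. Thus 50% of these markers were called, against 35.9% of all genes tested. The summed level of the 6 markers lay between 351 and 453 FPKM (the count scaled by gene length and library total) in si-NC. In si-METTL16 it lay between 360 and 400 FPKM. Of 12 markers of blood, endothelial, fibroblast, beta and acinar cells, CD3E and CPA1 were at 0 and only COL1A1 and CD68 had enough counts to be tested. Both rose (1.27 and 0.67). COL1A1 made up most of the summed level of this list, which was 26.3 to 30.2 FPKM in si-NC and 62.9 to 66.1 FPKM in si-METTL16. The fibroblast genes COL1A2, DCN and LUM were near 0. The part of these markers in the results below was not tested. The fit cannot tell fewer cells that express a gene from less RNA of it per cell.

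The siRNA sites listed by the study are shown as the DNA letters of the targeted strand, since a silencing reagent may also act on other mRNAs through its seed. The capitals mark the letters that pair with bases 2 to 8 of the guide strand.
siRNA METTL16-1: ccttgagactcAACTATAt
siRNA METTL16-2: ccgcctagttcTGTTAATa
siRNA METTL16-3: ccaccaagtaaGCGAAGAa
siRNA NC: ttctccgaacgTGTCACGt
The 8 CDK inhibitor genes were searched for them in their MANE Select transcripts (GENCODE v44). No stretch longer than 9 letters of any of these sites was found there. The 3 METTL16 seed sites were absent from these transcripts of CDKN1A, CDKN1B, CDKN1C, CDKN2A, CDKN2C, CDKN2D and CDKN3. That of METTL16-2 occurred in CDKN2B after the stop codon. Exons outside these transcripts and seeds of the other siRNA strand were not searched. The transcript of CDKN2C, for example, holds 995 bases, against 3018 in all its exons merged. The seed site of the control siRNA occurred in the coding part of CDKN3, in exon 3 on the plus strand of GRCh38 (chr14:54401524-54401546), and is shown in capitals with its flanks.
CDKN3: gctatcttTGTCACGagtgaatt
Of 19061 MANE Select transcripts, 6.37% hold this control seed site, 14.8% that of METTL16-1, 22.2% that of METTL16-2 and 8.0% that of METTL16-3. Whether any of these matches acts in the cells was not tested.

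All 6 inhibitor genes with enough counts to be tested differed between the groups, and they did so in both directions. The CIP/KIP genes CDKN1A, CDKN1B and CDKN1C fell, and CDKN2C, CDKN2D and CDKN3 rose. Of all 15089 genes tested, 35.9% passed the threshold in either direction, 18.4% by rising and 17.5% by falling, so that many genes moved in this comparison. In each of the 6 inhibitor genes the samples of one group lay apart from all samples of the other in CPM, as they did for 50.9% of all genes tested. CDKN2A and CDKN2B were not tested. The median log2 fold change over all genes tested was close to zero (-0.0045).

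**Figure D1:**
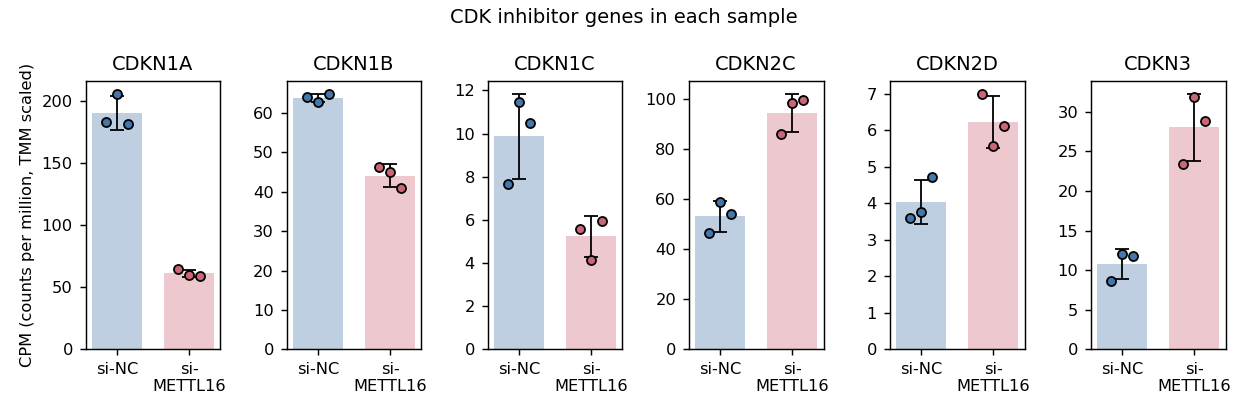
CPM after TMM scaling for the 6 tested CDK inhibitor genes. Points are samples (3 si-NC, 3 si-METTL16), bars are group means and error bars are SD; CDKN1A fell from 191 to 61.6 CPM and CDKN3 rose from 10.8 to 28.0 CPM, and in no panel do the groups overlap.

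CDKN1A (ENSG00000124762, GRCh38 chr6:36676460-36687339) encodes p21. Its FPKM was 29.6, 33.2 and 29.3 in the si-NC samples and 10.2, 9.57 and 9.49 in the si-METTL16 samples. The si-METTL16 samples all lay below the si-NC samples, with 3107, 3502 and 3187 counts in si-NC and 1065, 940 and 1070 in si-METTL16. The mean fell from 30.7 ± 2.18 to 9.77 ± 0.414 FPKM (SD, n = 3 per group). By edgeR, CDKN1A was at 32.3% of the control level (log2 fold change -1.63, SE 0.07, adjusted p = 8.3e-05), and 142 of the genes tested had a lower log2 fold change. Under the 14 alternatives its log2 fold change lay between -1.67 and -1.56 and passed in each. The antisense lncRNA DINOL overlaps 146 bases of its exons in GENCODE v44 and had 1 count in all 6 samples together, against 12871 for CDKN1A. Whether counting used the strand is not given in the sources used here.

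CDKN1B (ENSG00000111276, chr12:12715058-12722371) encodes p27, which accumulates in resting cells. It had 1082, 1068 and 1137 counts in si-NC and 762, 702 and 736 in si-METTL16. These are 14.9, 14.6 and 15.1 FPKM against 10.6, 10.3 and 9.43 FPKM, groups that were tight and did not overlap. CDKN1B fell to 69.0% of control (log2 fold change -0.54, SE 0.08, adjusted p = 0.0018 by edgeR), a smaller fall than that of CDKN1A, and passed in 14 of 14 alternatives. Another row of the table, AC008115.3, lies inside CDKN1B. It had 7 to 21 counts per sample and did not pass.

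CDKN1C (ENSG00000129757, chr11:2883213-2885773) encodes p57 and is an imprinted gene, expressed mainly from the maternal copy. It was the lowest of the tested CIP/KIP genes, with 130, 195 and 184 counts in si-NC and 92, 65 and 107 in si-METTL16. Its FPKM was 1.10, 1.64 and 1.5 in si-NC and 0.785, 0.587 and 0.842 in si-METTL16. The highest silenced sample lay below the lowest control sample, but the spread within each group was wider than for CDKN1A. CDKN1C fell to 53.1% of control (log2 fold change -0.91, SE 0.21, adjusted p = 0.014 by edgeR) and passed in 14 of 14 alternatives. On the log2(FPKM + 1) scale, which understates changes of low genes, the difference was -0.47.

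CDKN2A (ENSG00000147889, chr9:21967753-21995301) encodes p16 and, from another start, ARF, and had 0 counts in all 6 samples. Over the 51093700 counts of si-NC and the 50425921 counts of si-METTL16, a count of 0 allows a level of up to 0.0587 and 0.0595 CPM (counting error only). CDKN2B (ENSG00000147883, chr9:22002903-22009363), its neighbour, encodes p15, an inhibitor induced by TGF-beta. It had 0 counts in the 3 si-NC samples and 0, 1 and 1 in si-METTL16, which is under the floor of 3 counts per group, so no fold is given. CDKN2B-AS1, the antisense RNA of this locus, and CDKN2A-DT were at 0 in all samples.

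The table holds 60 features within 1 Mb of the CDKN2A and CDKN2B pair, the pair included, a window chosen after the values were seen. Of these, 35 were at 0 in all samples (CDKN2A among them), 16 had 1 to 10 counts in all (CDKN2B among them) and 9 had more. MTAP, an enzyme of methionine salvage 30.1 kb from the pair, had 26, 155 and 189 counts in si-NC and 122, 131 and 42 in si-METTL16. Counts of the lncRNA AL359922.1, whose row spans the region, were 106, 0 and 0 in si-NC and 0, 0 and 98 in si-METTL16. It had counts only in the samples in which MTAP was low. The sum of the MTAP and AL359922.1 counts, formed after seeing this, was 132, 155 and 189 in si-NC and 122, 131 and 140 in si-METTL16, a much narrower range than MTAP alone. MTAP did not pass (log2 fold change -0.25, SE 0.69, adjusted p = 0.81 by edgeR). Farther away, the lncRNA MIR31HG rose (1.17, SE 0.17, adjusted p = 0.0020), the pseudogene CLIC4P1 fell (-0.51, SE 0.16, adjusted p = 0.043, kept in 1 of the 6 leave-one-out fits), and FOCAD, KLHL9, DMRTA1 and LINC01239 did not pass.

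CDKN2C (ENSG00000123080, chr1:50960745-50974633) encodes p18 and was the main INK4 gene of these cells. Its counts were 789, 1004 and 949 in si-NC and 1413, 1537 and 1793 in si-METTL16. In FPKM these are 8.81, 11.2 and 10.2 against 15.9, 18.3 and 18.6. All silenced samples lay above all controls. CDKN2C rose to 178% of control (log2 fold change 0.83, SE 0.11, adjusted p = 0.0012 by edgeR) and passed in 14 of 14 alternatives, between 0.74 and 0.90. In GENCODE v44 the antisense lncRNA ENSG00000290102 overlaps 617 bases of its exons. It has no row in the expression table and could not be analysed. Whether its reads were counted for CDKN2C was not tested, as the use of strand is not given.

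CDKN2D (ENSG00000129355, chr19:10566462-10569059) encodes p19 and was the least counted of the tested inhibitor genes, with 61, 64 and 83 counts in si-NC and 115, 87 and 110 in si-METTL16. Its FPKM was 1.45, 1.51 and 1.90 in si-NC and 2.75, 2.21 and 2.43 in si-METTL16. The highest control and the lowest silenced sample were close to each other. CDKN2D was at 154% of control (log2 fold change 0.63, SE 0.18, adjusted p = 0.031 by edgeR). This call was lost when all genes with counts were tested (adjusted p = 0.059 by edgeR) and without si-NC 1 (0.091), si-NC 2 (0.094), si-METTL16 1 (0.10) or si-METTL16 3 (0.068). On the log2(FPKM + 1) scale the difference was 0.40.

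CDKN3 (ENSG00000100526, chr14:54396849-54420218) had the largest rise of the family. It had 146, 205 and 206 counts in si-NC and 385, 497 and 518 in si-METTL16. In FPKM these are 2.38, 3.32 and 3.24 against 6.33, 8.64 and 7.85, so that the lowest silenced sample was well above the highest control. CDKN3 rose to 259% of control (log2 fold change 1.37, SE 0.17, adjusted p = 0.0011 by edgeR), and 346 of the genes tested had a higher log2 fold change. It passed in 14 of 14 alternatives, between 1.11 and 1.48.

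**Figure D2:**
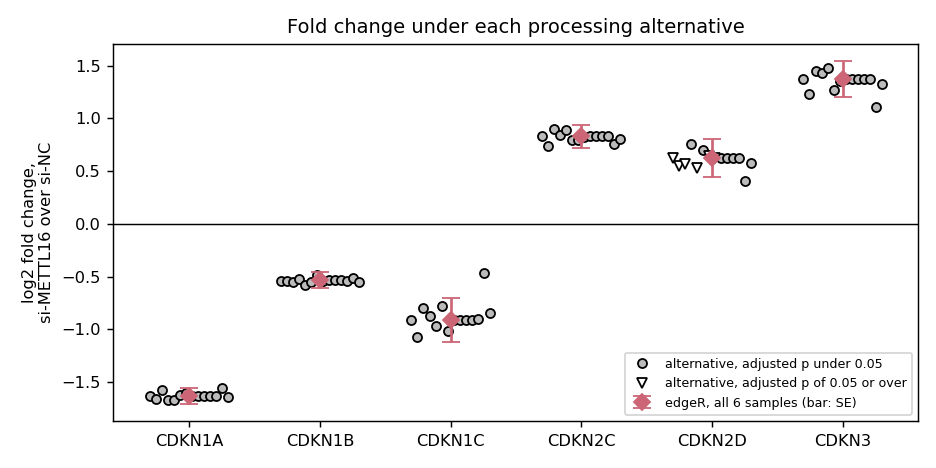
Log2 fold change (si-METTL16 over si-NC) of each tested inhibitor gene in edgeR with all 6 samples (diamond, bar is SE) and under each of 14 alternatives (grey circle where adjusted p was under 0.05, open triangle where it was not). Only CDKN2D has open triangles, in 6 of 14 alternatives, and no gene crosses 0.

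Levels of different genes can be compared only per length, and the deposited FPKM does this with lengths that were often longer than the exons. For 3014 genes with 1 transcript in GENCODE v44, the length implied by count and FPKM had a median ratio of 1.00 to the exon length. For 12405 genes with 3 or more transcripts the median ratio to the merged exons was 1.58. For CDKN1C the implied length was 7042 bases while the gene spans 2561 bases in the table. Merged exons can be too long as well. Those of CDKN1B hold 9255 bases in GENCODE v44, where the gene starts farther upstream, while it spans 7314 bases in the table. The level of CDKN1B per kb of merged exons is therefore understated. A MANE Select transcript can in turn be shorter than the RNA that was counted. That of CDKN2C holds 995 bases, against 3018 bases of merged exons. The level of CDKN2C, and the INK4 sum, may therefore be overstated per kb of MANE Select transcript. FPKM levels of different genes are therefore given here beside CPM per kb of the MANE Select transcript and CPM per kb of merged exons. A fold change between samples is not touched by the length.

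In si-NC, CDKN1A was the highest of the family on every scale, with 30.7 FPKM, 89.9 ± 6.40 CPM per kb of its MANE Select transcript and 63.5 ± 4.53 CPM per kb of merged exons. The place after it depended on the length. CDKN1B came next in FPKM (14.9 against 10.1 for CDKN2C), while CDKN2C came next per kb of MANE Select transcript (53.5 ± 6.29 against 26.5 ± 0.406 for CDKN1B) and per kb of merged exons (17.6 ± 2.07 against 6.90 ± 0.106). CDKN3 followed with 12.8 ± 2.25 CPM per kb of MANE Select transcript. CDKN1C (5.57 ± 1.11) and CDKN2D (2.83 ± 0.426) were the lowest expressed genes. These last genes changed places in FPKM, where CDKN2D had 1.62 and CDKN1C 1.41 with overlapping samples, and they also overlapped per kb of merged exons.

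In si-METTL16, CDKN2C was the highest on every scale, with 17.6 FPKM, 95.1 ± 7.57 CPM per kb of MANE Select transcript and 31.4 ± 2.50 CPM per kb of merged exons. CDKN3 (33.3 ± 5.05) and CDKN1A (29.0 ± 1.38) overlapped per kb of MANE Select transcript, but lay apart per kb of merged exons (15.3 ± 2.32 for CDKN3 and 20.5 ± 0.972 for CDKN1A). CDKN1B (10.1 FPKM) and CDKN1A (9.77 FPKM) overlapped in FPKM. CDKN1C was the lowest of the tested genes on all scales, with 2.95 ± 0.533 CPM per kb of MANE Select transcript.

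The balance of the families shifted accordingly. The CIP/KIP sum was 118, 130 and 119 CPM per kb of MANE Select transcript in si-NC and 53.01, 49.4 and 48.4 in si-METTL16. The INK4 sum was 49.4, 62.0 and 57.6 in si-NC and 91.3, 103 and 104 in si-METTL16. The ratio of CIP/KIP to INK4 mRNA was thus 2.18 ± 0.177 in si-NC and 0.508 ± 0.0631 in si-METTL16 (SD, n = 3). Per kb of merged exons it was 3.68 ± 0.295 and 0.775 ± 0.0847, and in FPKM 4.05 ± 0.351 and 1.03 ± 0.114. The ratio was lower in every silenced sample than in any control on each of the 3 scales. Whether it passed 1 in the silenced samples depended on the scale. With 3 samples against 3, an exact permutation test of such a ratio cannot go below p = 0.10, and none was run.

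Within the CIP/KIP family, CDKN1A supplied 73.8%, 74.9% and 72.3% of the summed CPM per kb of MANE Select transcript in si-NC and 57.8%, 57.5% and 58.0% in si-METTL16. CDKN1B supplied 21.8% ± 1.47 in si-NC and 36.4% ± 1.34 in si-METTL16. CDKN1A exceeded CDKN1B 3.40 ± 0.293 times in si-NC and 1.59 ± 0.0654 times in si-METTL16 on this scale, 9.22 ± 0.795 and 4.31 ± 0.177 times per kb of merged exons, and 2.07 ± 0.178 and 0.967 ± 0.0397 times in FPKM. The merged-exon ratios, and the CIP/KIP shares on that scale, rest on a CDKN1B length that exceeds its span in the table. The share of CDKN1A was 85.4% and 74.9% per kb of merged exons and 65.3% and 47.4% in FPKM, and that of CDKN1B was 9.30% and 17.4% and 31.7% and 49.0%. On all 3 scales CDKN1A supplied less and CDKN1B more of the sum in every silenced sample than in any control. CDKN2C made up most of the INK4 sum, with 95.0% ± 0.75 in si-NC and 95.6% ± 0.827 in si-METTL16 per kb of MANE Select transcript, 86.8% ± 1.80 and 88.2% ± 2.01 per kb of merged exons, and 86.1% ± 1.88 and 87.6% ± 2.10 in FPKM. These shares overlapped between the groups.

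**Figure D3:**
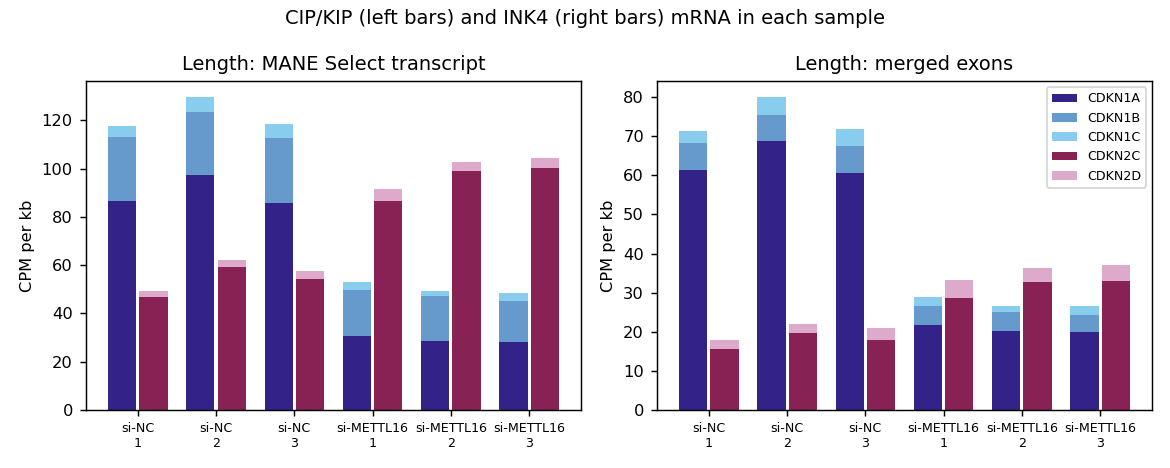
Summed CIP/KIP mRNA (blue, left bar of each pair) and INK4 mRNA (red, right bar) in each of the 6 samples, in CPM per kb of MANE Select transcript (left panel) and of merged exons (right panel). In the left panel the CIP/KIP bars fall from between 118 and 130 to between 48.4 and 53.01, and the INK4 bars rise from between 49.4 and 62.0 to between 91.3 and 104.

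The CDKs and cyclins that these proteins bind were given by a list of 12 genes, all of which were tested. Of them, 7 rose, 3 fell and 2 did not pass, with a median log2 fold change of 0.64 against -0.0045 over all genes tested, and 83.3% were called against 35.9% of all. CDK1, the kinase of mitotic entry, had 1200, 1072 and 1059 counts in si-NC and 2558, 1974 and 2241 in si-METTL16 (log2 fold change 1.07). The mitotic cyclins CCNB1 (0.81) and CCNB2 (1.56) and the S phase cyclin CCNA2 (1.25) rose as well. CDK2, the main partner of the CIP/KIP proteins, rose from 544, 491 and 510 to 979, 608 and 710 counts (0.61, adjusted p = 0.030 by edgeR), a call lost without any one of the si-NC samples. Its cyclins CCNE1 (0.86) and CCNE2 (0.56) rose, CCNE2 with an adjusted p of 0.036 that was kept in only 1 of the 6 leave-one-out fits.

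Of the kinases that the INK4 proteins bind, CDK6 fell slightly (-0.30, SE 0.07), while CDK4 (0.17, adjusted p = 0.36) did not pass. Among the D cyclins, CCND1 was by far the most abundant. It had 11958, 12941 and 12511 counts in si-NC and 8419, 8450 and 9220 in si-METTL16 and fell (-0.48, SE 0.05). CCND2 fell from 19 to 24 counts per sample to between 5 and 10 (-1.56, SE 0.38, adjusted p = 0.016), a call lost without si-NC 3, si-METTL16 1 or si-METTL16 3. CCND3 (0.66, adjusted p = 0.053) did not pass.

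**Figure D4:**
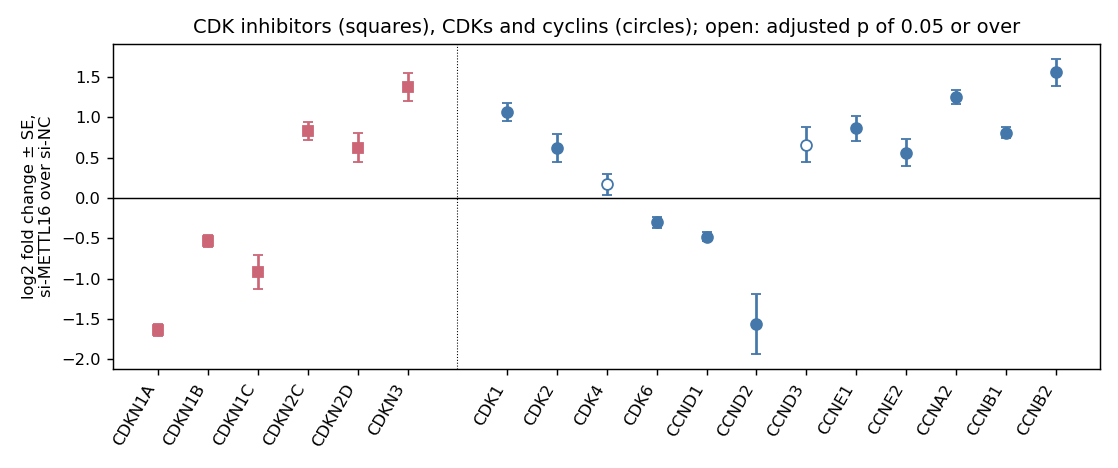
Log2 fold change ± SE (edgeR, 6 samples) of the tested CDK inhibitor genes (squares) and of the 12 listed CDK and cyclin genes (circles), with open symbols where adjusted p was 0.05 or over. CDKN1A sits lowest among the inhibitors at -1.63, and the circles run from -1.56 (CCND2) to 1.56 (CCNB2).

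Of 18 genes for proteins that modify, ubiquitinate or degrade the inhibitor proteins, 9 rose, 2 fell and 7 did not pass. The median log2 fold change was 0.28, and 61.1% were called against 35.9% of all genes tested. DTL, the substrate receptor of the CRL4 ligase that degrades p21 on PCNA, rose from 286, 306 and 316 counts to 1026, 917 and 1011 (1.74, SE 0.08). PCNA itself rose (0.82). UHMK1, a kinase that phosphorylates p27, fell from 9599, 9713 and 10459 counts to 3327, 3004 and 3586 (-1.55, SE 0.05). CKS1B, the cofactor with which SKP2 recognises p27, rose (1.13, SE 0.13), and so did SKP2 (0.76, SE 0.11). Other ligase genes of the list did not move together. CUL4B fell (-0.49, SE 0.05), and CUL4A, CUL1 and SKP1 did not pass. DDB1 rose (0.32, SE 0.05), as did RBX1 (0.39, SE 0.10, lost in 4 of the 6 leave-one-out fits).

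Of 21 transcription factors known to activate inhibitor genes, 6 rose, 2 fell and 13 did not pass (median 0.22), so that 38.1% were called against 35.9% of all genes tested. E2F1 (1.67, SE 0.13), EGR1 (1.35, SE 0.13) and ETS2 (1.10, SE 0.06) moved most. Of 8 known repressors of inhibitor genes 7 were tested, of which 2 rose, 2 fell and 3 did not pass (median -0.18, 57.1% called). MYC rose from 141, 356 and 81 counts to 1353, 1129 and 1011 (2.64, SE 0.49), with a wide spread among the controls. TBX2, a T-box repressor of CDKN1A and CDKN2A, rose (2.22, SE 0.24), and ID1, which blocks E proteins, fell (-0.84, SE 0.10).

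Of 14 chromatin regulators of the INK4 locus, 3 rose, 4 fell and 7 did not pass (median 0.10, 50% called against 35.9% of all genes tested). The Polycomb component CBX8 fell (-1.13), and KDM2B (0.67, lost in 4 of the 6 leave-one-out fits) and the methyltransferase EZH2 (0.65) rose. Of 14 tested RNA-binding proteins and microRNA host genes that act on inhibitor mRNAs, only ELAVL1, which binds the CDKN1A message, passed (0.21, SE 0.06, kept in 1 of the 6 leave-one-out fits), and the list median was 0.03 with 7.14% called.

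The genes whose profile over the 6 samples lay nearest to that of each inhibitor were found by the Euclidean distance of centred log2 CPM. A pattern on symbols left out clone names, LINC genes and bare identifiers, and also some gene symbols that begin alike. The profiles are set largely by the difference between the groups, so this describes genes of like direction and size. Nearest to CDKN1A were UHMK1 (distance 0.211), GM2A (0.236), METTL16 (0.272), GSTT2 (0.312) and HHIPL2 (0.321). Nearest to CDKN1B were TRAM2, ERLIN2 and GTF2A1, and nearest to CDKN1C were RP1L1, RHOV and ACER2. For CDKN2C they included HMMR and C16orf45, for CDKN2D EPHA4, NPC1 and NSMCE3, and for CDKN3 CIP2A, E2F8 and DLGAP5.

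Within 100 kb of the 8 genes the table holds 70 neighbouring rows, counting a row again where it is near both CDKN2A and CDKN2B. Each of that pair is itself counted as a neighbour of the other. Of the 70 rows, 25 were tested. Of these 7 rose and 4 fell. With MTAP counted once, 45.8% of 24 tested neighbours were called against 35.9% of all genes tested. FAF1, which starts 0.482 kb from CDKN2C on the opposite strand and encodes a FAS-associated ubiquitin-binding protein, rose by 0.74 (SE 0.08), close to the 0.83 of CDKN2C. SRSF3, the only tested neighbour of CDKN1A, rose slightly (0.29, SE 0.06) while CDKN1A fell. Beside CDKN1B, DDX47 rose (0.95, SE 0.08), GPR19 rose (1.30, SE 0.38, kept in 1 of the 6 leave-one-out fits), and CREBL2, APOLD1 and AC008115.3 did not pass. Around CDKN1C, in the imprinted domain of chromosome 11, SLC22A18 (-0.92, SE 0.10), KCNQ1 (-1.71, SE 0.47) and PHLDA2 (-0.49, SE 0.15) fell as CDKN1C did, and NAP1L4 did not pass. The calls of KCNQ1 and PHLDA2 were each lost in 5 of the 6 leave-one-out fits. Beside CDKN2D, KRI1 rose (0.55) and SLC44A2 fell (-1.31). None of CNIH1, GMFB and CGRRF1 passed beside CDKN3. Other genes with a CDKN symbol were CDKN2AIP (213, 238 and 286 counts in si-NC, 276, 117 and 301 in si-METTL16) and CDKN2AIPNL (749, 693 and 743 against 618, 636 and 624), which encode an ARF-binding protein and its relative and did not pass. Their pseudogenes had 11 counts at most.

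**Figure D5:**
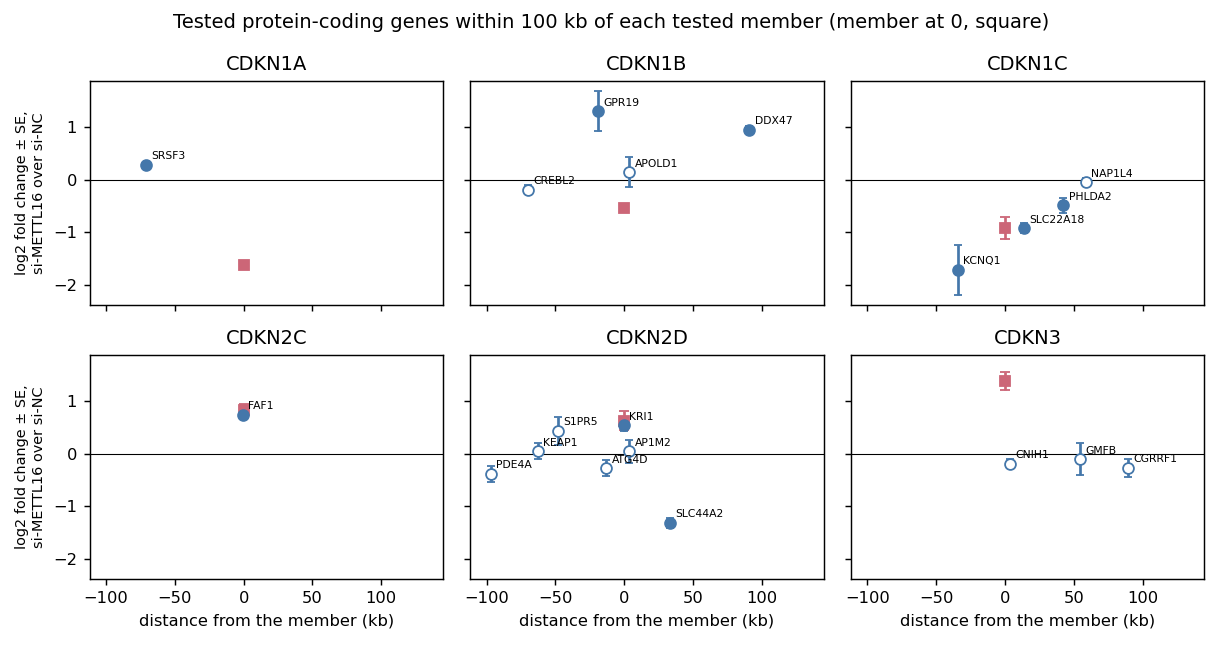
Log2 fold change ± SE of the tested protein-coding genes within 100 kb of each tested inhibitor gene (circles, open where adjusted p was 0.05 or over) against their distance from it in kb, with the inhibitor gene as a square at 0 and 1 neighbour of CDKN2D not plotted. FAF1 lies next to CDKN2C in place and value, while the neighbours of CDKN1A, CDKN1B and CDKN3 do not share the direction of those genes beyond the threshold.

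The promoters of CDKN1A, which fell most, and of CDKN3, which rose most, are shown as the 250 bases before the RefSeq start (GRCh38.p14, plus strand of chr6:36678464-36678713 and of chr14:54396757-54397006). Capitals mark the GC box GGGCGG, the element CCAAT named after its letters, and the CHR element TTTGAA, each on either strand.
CDKN1A: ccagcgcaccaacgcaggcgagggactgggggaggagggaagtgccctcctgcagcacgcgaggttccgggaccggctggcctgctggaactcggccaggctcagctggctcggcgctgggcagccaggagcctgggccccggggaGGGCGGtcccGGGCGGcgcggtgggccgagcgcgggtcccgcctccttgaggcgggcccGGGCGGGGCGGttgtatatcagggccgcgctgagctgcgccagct
CDKN3: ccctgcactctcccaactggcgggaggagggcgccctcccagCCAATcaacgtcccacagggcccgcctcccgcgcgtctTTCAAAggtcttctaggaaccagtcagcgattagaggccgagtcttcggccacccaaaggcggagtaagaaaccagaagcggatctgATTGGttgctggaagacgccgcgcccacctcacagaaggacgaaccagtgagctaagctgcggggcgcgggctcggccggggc
CDKN1A held 4 GC boxes, with first bases at -104, -94, -45 and -40 from the start, the last of which share letters. It held neither of the other elements. CDKN3 held no GC box. It had a CHR element at -170 on the minus strand and CCAAT boxes at -208 and -83. CHR elements and CCAAT boxes are known from promoters that are active late in the cell cycle, and GC boxes bind SP1. RefSeq promoters were found for 7 of the 8 genes, with 10 starts in all, and CDKN1C had none. A GC box lay before at least 1 start of CDKN1A, CDKN1B, CDKN2A, CDKN2B, CDKN2C and CDKN2D. Counted by start, it lay before 7 of the 10 and in 42.6% of all 35116 promoters. A CCAAT box lay before 4 of the 10 starts (of CDKN1B, CDKN2C, CDKN2D and CDKN3) and in 32.0% of all promoters. CDKN3 alone had a CHR element, which is 1 of the 10 starts, against 13.3% of all. The TATA box TATAAA (10.7% of all) and the E2F sites TTTGGCGC or TTTCCCGC or TTTGCCGC or TTTCGCGC (2.79% of all) were found before no start of the family, also on both strands. GC boxes and CCAAT boxes thus lay before genes that fell and genes that rose. Whether any of these elements has a part in the changes was not tested.

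Letters linked to m6A were searched in the mRNA strand around the stop codon, a place where m6A is often found in mRNA, in windows of 203 bases (100 on each side) of the MANE Select transcripts. GGAC, a core of the site of the METTL3 writer, occurred in the windows of 6 of the 8 genes and in 58.3% of 17788 windows. GTGGAC, which contains GGAC, occurred in those of CDKN1A, CDKN2B and CDKN2D and in 6.52% of all. The study describes GTGGAC and GAACGT (with U for T) as enriched in its m6A sequencing and present in exons of CDKN1A. GAACGT occurred in none of the 8 windows and in 1.57% of all. TACAGAGAA, known from the METTL16 substrates U6 and MAT2A, also occurred in none of the 8 and in 0.242% of all. The site of CDKN1A and a site of CDKN2D are shown with GGAC in capitals, as examples from a CIP/KIP and an INK4 gene whose windows hold GTGGAC. They lie in coding exon 2 at chr6:36684490-36684509 (plus strand) and chr19:10567083-10567102 (minus strand).
CDKN1A: ccccaggtGGACctggagac
CDKN2D: gacctcgtGGACatcctgca
Over the whole CDKN1A transcript there were 11 GGAC, or 5.20 per kb, against a median of 3.74 per kb over all MANE Select transcripts. CDKN1C (8.46 per kb) and CDKN2D (5.61) held more, and CDKN2C (5.03) nearly as many. CDKN1B (3.73), CDKN3 (3.57), CDKN2A (3.07) and CDKN2B (2.85) held fewer. GTGGAC was found in 7 of the 8 CDKN1A transcripts of GENCODE v44, and GAACGT and TACAGAGAA in 0 of 8. Of all whole MANE Select transcripts, 58.0% hold GTGGAC, 22.4% GAACGT and 3.43% TACAGAGAA. The whole MANE Select transcripts of CDKN1B, CDKN1C, CDKN2A, CDKN2B and CDKN2D hold GTGGAC too, and those of CDKN2C and CDKN3 do not. No methylation was measured in these samples.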

How the data were processed

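RNA-seq data of 3 si-NC and 3 si-METTL16 samples of PANC-1 cells were used, grouped by their titles. For every gene the authors deposited an unnormalized count and an FPKM value, the count over a gene length and the library total. The submitters' processing notes name HISAT2 2.0.4 and StringTie 1.3.0 and GRCh38; the counting program, the annotation release and the use of strand are not given in the sources used here. A total of 27 symbols turned into dates were restored by gene ID.

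Counts were scaled by TMM, filtered by filterByExpr (minimum count 10, minimum total 15) and tested by edgeR 4.0.16 (functions glmQLFit and glmQLFTest, R 4.3.3); Benjamini-Hochberg adjusted values under 0.05 passed. The methods name limma, which was run as an alternative (limma 3.58.1), as was DESeq2 1.42.0. An SE is the log2 fold change over the root of F. The methods name biological triplicates, and the labels do not say whether these were separate cultures, so p-values measure the spread between these samples. Floors and intervals cover counting error only. The common biological coefficient of variation was 16.5%.

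The inhibitor genes and the gene lists were chosen with earlier results of these data known. Named were the 8 genes, METTL16, other CDKN symbols, called or overlapping genes within 100 kb, the 3 called genes of largest change per list (all CDKs and cyclins) and the 3 nearest profiles (5 for CDKN1A), computed on centred log2(CPM + 0.5). Other genes named (PCNA, SKP2, CUL4B, CUL4A, CUL1, SKP1, DDB1, RBX1, unpassed neighbours and genes near CDKN2A) were added after their values were seen. So were the promoter and stop codon letters and the length scales. Some genes that the rule takes, and 1 of the gene lists, are not reported here. Gene models and transcripts were those of GENCODE v44, promoters those of RefSeq. The table's coordinates of the 8 genes lie within 2 bases of GENCODE v44 except the end of CDKN2B (-58 bases) and the start of CDKN1B (-29560 bases), and are printed as deposited. Python 3.11.15 was used.

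The edgeR step was tested on simulated data of 15089 genes for this comparison. Of 97 changed genes with an absolute log2 fold change of 1.5, 79 were called, and of 99 with 0.75, 40 were called, with 7 of 14686 unchanged genes called. Far fewer genes were changed in the simulation than the 5418 called in the samples. The Benjamini-Hochberg adjustment depends on that share, so these rates need not hold for the samples. The recovery required for the test was set after this output was seen.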

Additional observations from a re-analysis of the deposited data

How the results depend on the processing

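CDKN1A, CDKN1B, CDKN1C, CDKN2C and CDKN3 kept their direction and passed the threshold in 14 of 14 alternatives: the replicate block, each sample left out, 2 other filters, DESeq2 size factors, DESeq2, voom, and limma on log2(FPKM + 1) and log2(FPKM + 0.1). CDKN2D kept its direction but lost its call under 6, at 0.63 on the log2 scale with the replicate block (adjusted p = 0.060 by edgeR), 0.62 without a filter, and 0.53 to 0.75 over the leave-one-out fits. Between 5 and 6 of the inhibitor genes were called over those fits and 4 at an adjusted p under 0.01. Over all genes, 5418 were called, 5013 with the replicate block, 4159 to 4526 with a sample left out and 3035 at an adjusted p under 0.01. After subtraction of group means, samples with the same number correlated at 0.025, 0.037 and 0.030 across genes, so the numbers were not taken to pair samples, although each sample correlated best with its own number. The block changed no inhibitor call other than that of CDKN2D. CDKN2A had no counts to fit, and CDKN2B, with 2 counts in all, is given no value under any alternative. CDKN2D and CDKN1C had the fewest counts of the tested inhibitor genes, and the effect of depth on them was not tested.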
